A study of Mus musculus with 4 samples.

Results

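The genes described here are 10 transcription factor genes that direct activated CD8+ T cells towards short-lived effector or long-lived memory cells. They were Prdm1, Tbx21, Zeb2 and Id2 on the effector side, and Bach2, Foxo1, Tcf7, Id3, Eomes and Zeb1 on the memory side. They were chosen by name out of 21774 protein-coding genes of the mouse chromosomes, and every island of histone H3 lysine 9 trimethylation (H3K9me3) within 100 kb of them was listed. That gave 13 of 12371 islands in the wild-type (WT) list and 6 of 25424 islands in the Suv39h1 knockout (KO) list. The cells of both groups were mouse CD8+ T cells on the C57BL/6 background. They had been kept in culture for 3 days with interleukin-2 and antibodies to CD3 and CD28. H3K9me3 was profiled by chromatin immunoprecipitation and sequencing with the same antibody in 1 WT library and 1 Suv39h1-KO library. The KO cells are labelled as lacking the methyltransferase gene Suv39h1. The sources used here do not say how it was deleted, in which cells, or how old and how many the mice were. The series title calls the control mice littermates, and the 2 input libraries are not analysed here.

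H3K9me3 marks silent chromatin and is bound by HP1 proteins, which compact it. SUV39H1 is among the enzymes that write the mark, and it is known above all at pericentromeric repeats. In CD8+ T cells the 10 factors act largely as opposed partners. BLIMP-1 (Prdm1) and T-bet (Tbx21), with ZEB2 and ID2, drive effector differentiation, while BACH2, TCF-1 (Tcf7), FOXO1, ID3, EOMES and ZEB1 are known for keeping or forming memory cells.

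An island is a stretch of the genome that the authors' peak caller found enriched for H3K9me3 reads. Islands lie on a grid of 500 bp, and every position below is in build mm10 and counted from 1. The WT list covered 136 Mb and the KO list 249 Mb, or 1.83 times as much, from 5547695 and 10020253 reads in islands. Few islands were called on chromosome X, 2 in WT and 9 in KO, and the 10 genes lie on autosomes. The depth of the whole libraries is not known here, so reads per kb are given to place an island within its own list. With 1 library per genotype there is no replicate error and no test between genotypes, and each value describes these 2 libraries. A missing island means that no island was called there, which does not exclude the mark.

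None of the promoters tabulated for these genes lay under an island. RefSeq promoter windows (build GRCm38.p6, the assembly that mm10 names) were found for 9 of the 10 genes, 13 windows in all, and 0 of the 13 touched an island in either list. Zeb1 has no entry. Over the first listed window of 17492 protein-coding genes, 3.4% lay under a WT island and 3.84% under a KO island, so 0 of 9 is close to this background. The 250 bases before the first listed start are printed for Prdm1, Tbx21, Bach2 and Foxo1, the 4 genes whose starts lay nearest to a WT island. They are given 5′ to 3′ on the gene's strand, with each CpG in capitals (the letters CG, which read the same on both strands and do not overlap each other).
Prdm1: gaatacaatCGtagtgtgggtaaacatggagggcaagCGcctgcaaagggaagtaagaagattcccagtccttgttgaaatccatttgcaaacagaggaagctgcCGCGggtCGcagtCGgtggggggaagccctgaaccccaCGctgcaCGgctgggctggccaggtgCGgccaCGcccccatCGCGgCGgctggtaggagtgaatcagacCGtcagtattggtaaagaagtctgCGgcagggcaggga
Tbx21: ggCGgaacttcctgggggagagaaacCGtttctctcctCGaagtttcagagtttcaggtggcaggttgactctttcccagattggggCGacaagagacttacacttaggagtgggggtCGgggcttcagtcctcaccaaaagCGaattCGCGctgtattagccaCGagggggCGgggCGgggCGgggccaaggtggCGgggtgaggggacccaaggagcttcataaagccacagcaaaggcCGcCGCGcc
Bach2: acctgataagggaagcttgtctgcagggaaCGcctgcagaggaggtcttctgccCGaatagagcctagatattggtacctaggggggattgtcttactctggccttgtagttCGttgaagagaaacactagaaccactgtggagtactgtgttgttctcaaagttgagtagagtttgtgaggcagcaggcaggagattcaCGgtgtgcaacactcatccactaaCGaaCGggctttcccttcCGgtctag
Foxo1: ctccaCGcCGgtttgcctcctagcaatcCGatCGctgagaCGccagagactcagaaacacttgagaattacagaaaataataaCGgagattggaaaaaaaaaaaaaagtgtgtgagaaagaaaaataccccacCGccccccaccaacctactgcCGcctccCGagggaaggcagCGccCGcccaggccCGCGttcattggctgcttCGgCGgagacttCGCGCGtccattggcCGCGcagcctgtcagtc
The Prdm1 sequence is chr10:44458749-44458998 on the minus strand and holds 15 CpGs. That of Tbx21 is chr11:97115332-97115581, also on the minus strand, with 16. The Bach2 sequence is chr4:32417185-32417434 on the plus strand with 7, and that of Foxo1 is chr3:52268087-52268336 on the plus strand with 20. The listed start of Bach2 thus has the fewest CpGs of the 4. The listed starts of Prdm1 and Bach2 lie 69.8 and 179 kb inside their RefSeq genes. CpGs before the upstream edges of these genes were not counted.

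The first listed promoters of the 9 genes were of the kinds least often under an island. Their CpG number in these 250 bases ran from 7 at Bach2 to 37 at Tcf7, with a median of 16, against a median of 10 over the 17492 genes. Of those genes 92.7% had at least 1 CpG and 58.7% had 7 or more. Promoter windows with 0 to 4 CpGs lay under islands in 7.57% of cases in WT and 9.90% in KO. With 5 to 14 CpGs the shares were 1.51% and 1.14%, and with 15 or more they were 1.01% and 0.327%. Of the 9 genes, 6 had 15 or more (Prdm1, Tbx21, Id2, Foxo1, Tcf7 and Id3), 3 had 5 to 14 (Zeb2, Bach2 and Eomes) and 0 had fewer.

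Within 100 kb, WT islands lay near 6 of the 10 genes and KO islands near 4, and the 4 were among the 6. Both lists had islands at Prdm1, Bach2, Foxo1 and Zeb1. Tbx21 and Zeb2 had them in WT alone, 0 genes had them in KO alone, and Id2, Tcf7, Id3 and Eomes had them in neither. Over all 21774 protein-coding genes with the same 100 kb on each side, 48.9% had a WT island, 40.4% a KO island, 32.3% both, 16.6% WT alone, 8.08% KO alone and 43% neither. The 6, 4, 4, 2, 0 and 4 genes counted here are close to these shares. The difference between the lists lay in the number of islands, 13 in WT and 6 in KO, and in their total cover, 111 kb against 48 kb. Their median length was alike, 7.5 kb in WT and 7.25 kb in KO. Over all genes the mean per gene was 1.07 islands in WT and 1.36 in KO, and for these 10 it was 1.3 and 0.6.

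**Figure D1:**
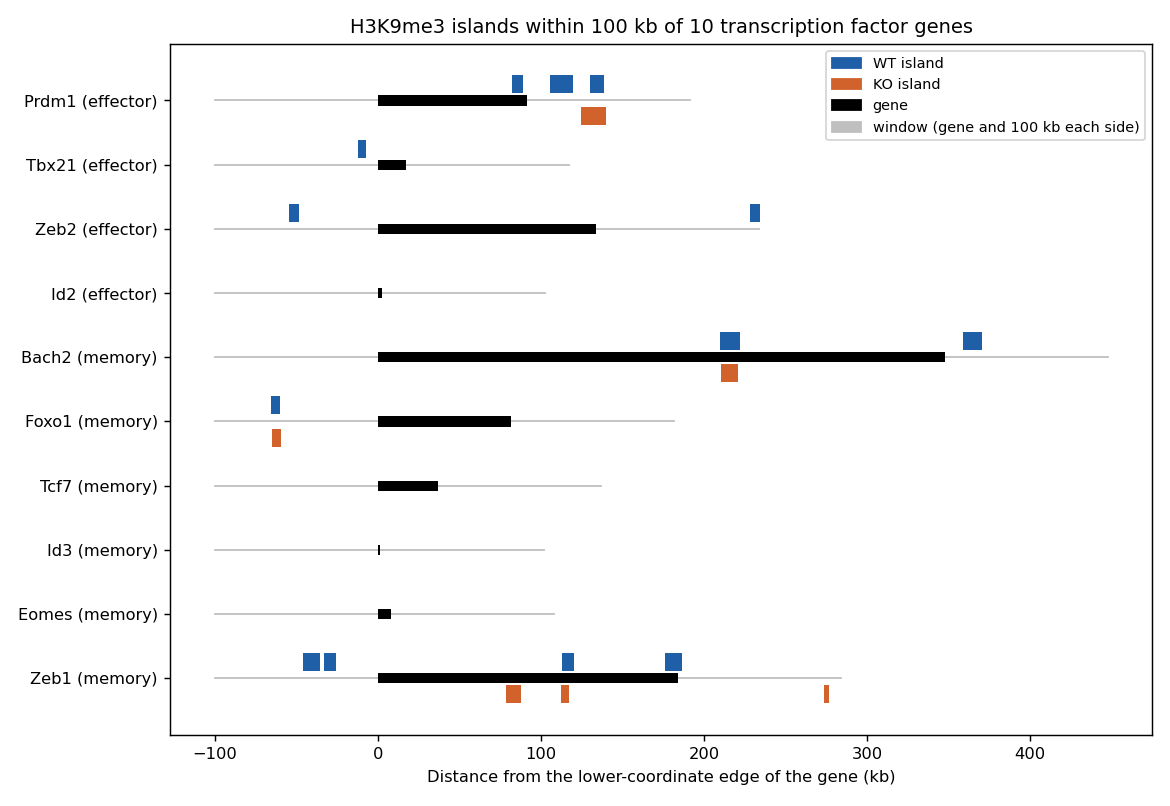
Islands within 100 kb of each gene, with distance in kb from the lower-coordinate edge of the gene on the x axis and the 10 genes on the y axis. Black bars are genes, grey lines the windows searched, blue bars above the line WT islands and orange bars below it KO islands. Overlapping islands of the 2 lists stand at Prdm1, Bach2, Foxo1 and Zeb1, and 4 genes have no island in the window.

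Among the effector factors, Prdm1 had the most islands. Prdm1 encodes the zinc finger repressor BLIMP-1, which promotes terminal effector cells. Its RefSeq gene (chr10:44437174-44528558, 91.4 kb, minus strand) reaches 69.8 kb upstream of the listed start whose promoter is printed above. A WT island at chr10:44519501-44526000 lay in that upstream stretch of the gene, 60.8 kb before the listed start. It was 6.50 kb long with 302 reads, or 46.5 reads per kb (95% Poisson interval 41.4 to 52.0), denser than 90.2% of WT islands. So the island counted as inside Prdm1 lay far from the listed start but close to the upstream edge of the RefSeq gene, where longer transcripts begin. No promoter was tabulated at that edge. The nearest KO island was 36 kb away from this WT island.

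The other Prdm1 islands lay further upstream, outside annotated genes. A WT island at chr10:44543001-44557000 (14 kb, 561 reads, 40.1 per kb) had no KO partner, although a KO island began 5 kb beyond its end. The third WT island, chr10:44567001-44576000 (9 kb, 392 reads, 43.6 per kb), lay wholly under the KO island chr10:44562001-44577000. That KO island was 15 kb long, with 671 reads or 44.7 per kb (41.4 to 48.2), denser than 87.1% of KO islands. It began 5 kb before the WT island and ended 1 kb after it. In all, the window held 29.5 kb of WT cover and 15 kb of KO cover, and both lists had an island at the same place, 38.4 kb from the gene in WT and 33.4 kb in KO. When the less dense part of each list (at or below its median density) was left out, and with it the WT island of 14 kb, the difference of 14.5 kb between the lists became 0.5 kb.

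Tbx21 and Zeb2 had islands in WT alone. Tbx21 (chr11:97098007-97115331, minus strand) encodes T-bet, the T-box factor of effector and interferon gamma programmes. Its WT island, chr11:97085501-97090500, lay 7.51 kb past the far end of the gene and 24.8 kb downstream of the start. It was 5 kb long with 239 reads, or 47.8 per kb (41.9 to 54.3), and denser than 92.8% of WT islands. The nearest KO island was 724 kb from it, the longest such gap of the 13 WT islands. Among WT islands this one was short, longer than 3.40% of the list.

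Zeb2 (chr2:44983512-45117442, minus strand) encodes a zinc finger repressor that acts with T-bet in terminal effector cells. One WT island, chr2:44929001-44935000 (6 kb, 266 reads, 44.3 per kb), lay 48.5 kb past the end of the gene. The second, chr2:45211501-45218000 (6.50 kb, 287 reads, 44.2 per kb), lay 94.1 kb upstream of the start and crossed the limit of the window. The nearest KO islands were 75.5 and 86.5 kb from them. The first islands outside the window were a WT island 110 kb from the gene and a KO island 130 kb away in Gtdc1, so a slightly wider window would give Zeb2 a KO island too. With 50 kb on each side the WT cover of Zeb2 was 1.49 kb in place of 11.9 kb.

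Id2, the fourth effector gene, encodes an inhibitor of E protein transcription factors. It is a short gene (chr12:25093799-25096092) with no island in its window. The nearest WT island lay 453 kb away at chr12:25549001-25557000 and the nearest KO island 1527 kb away at chr12:26623501-26635000. Over the 4 effector genes, WT islands numbered 6 with 46.4 kb of cover, and the KO list had 1 island with 15 kb, the one at Prdm1.

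Among the memory factors, Bach2 and Zeb1 had islands inside the gene in both lists. Bach2 (chr4:32238413-32586109, 348 kb, plus strand) encodes a repressor that restrains effector genes, Prdm1 among them. The WT island chr4:32448501-32460500 was 12 kb long with 594 reads, or 49.5 per kb (45.6 to 53.6), denser than 95% of WT islands. The KO island chr4:32449001-32459500 lay wholly inside it. It was 10.5 kb long with 476 reads, or 45.3 per kb (41.4 to 49.6), denser than 89.0% of KO islands. The edges of the 2 islands differed by 0.5 and 1 kb, that is by 1 and 2 steps of the grid. Both began about 31 kb downstream of the listed start, which itself lies 179 kb inside the RefSeq gene, where longer transcripts begin further upstream.

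A second WT island near Bach2 had no KO partner. At chr4:32597001-32609000 it was 12 kb long with 513 reads, or 42.8 per kb, and lay 10.9 kb past the gene, in the connexin gene Gja10. Gja10 was the one protein-coding gene other than the 10 that any of the 19 islands touched. The nearest KO island was 138 kb from it. The Bach2 window thus held 24 kb of WT cover and 10.5 kb of KO cover.

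Zeb1 had the widest cover of the 10 genes. It encodes a zinc finger repressor with a role in memory CD8+ T cells, and spans 184 kb (chr18:5591327-5775468). Its window held 4 WT islands over 35.5 kb and 3 KO islands over 17 kb. Inside the gene, the WT island chr18:5704001-5711500 (7.5 kb, 366 reads, 48.8 per kb, 43.9 to 54.1) and the KO island chr18:5703501-5708500 (5 kb, 230 reads, 46 per kb, 40.2 to 52.3) shared 4.50 kb. The other islands of Zeb1 stood apart in the 2 lists.

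In WT, an island at chr18:5767501-5778000 (10.5 kb, 376 reads) crossed the upper-coordinate end of Zeb1. At 35.8 reads per kb (32.3 to 39.6) it was the least dense of the 13, above 4.75% of WT islands. A further pair of WT islands, chr18:5545501-5556000 (10.5 kb, 48.5 per kb) and chr18:5558501-5565500 (7 kb, 44.1 per kb), lay 35.3 and 25.8 kb below the gene in the long noncoding RNA gene Gm10125. In KO, an island at chr18:5670001-5679000 (9 kb, 41.7 per kb) lay inside Zeb1, 25 kb from the nearest WT island. Another, chr18:5865001-5868000 (3 kb, 156 reads, 52 per kb, 44.2 to 60.8), lay 89.5 kb above the gene. The cover inside the gene was alike, 15.5 kb of WT and 14 kb of KO islands, but most of it lay at different places.

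Foxo1 was the one gene with the same length of cover in both lists. It encodes the forkhead factor that promotes naive and memory genes such as Il7r and Tcf7, and lies at chr3:52268337-52350109 on the plus strand. The WT island chr3:52203001-52208500 held 249 reads, or 45.3 per kb (39.8 to 51.3), and the KO island chr3:52203501-52209000 held 266 reads, or 48.4 per kb (42.7 to 54.5). Each was 5.50 kb long, and the KO island was shifted by 0.5 kb, 1 step of the grid. Both lay about 60 kb upstream of the gene, outside annotated genes. The next islands were 634 kb away in WT and 727 kb away in KO, so this shared island stood alone. With the KO list reduced to the WT number of islands by most reads, the KO island here was dropped.

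Tcf7, Id3 and Eomes had no island within 100 kb. Tcf7 (chr11:52246527-52283383) encodes TCF-1, the factor of stem-like and memory T cells, and its nearest islands lay 516 kb away in WT and 1140 kb away in KO. Id3 (chr4:136143822-136145392) encodes an E protein inhibitor of memory precursors. A WT island lay 147 kb from it and the nearest KO island 2196 kb. Eomes (chr9:118478186-118486132) encodes a T-box factor of memory cells, with a WT island at 278 kb and a KO island at 450 kb. With Id2 these were 4 of the 5 shortest of the 10 genes. Over the 6 memory genes, 7 WT islands covered 65 kb and 5 KO islands covered 33 kb.

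**Figure D2:**
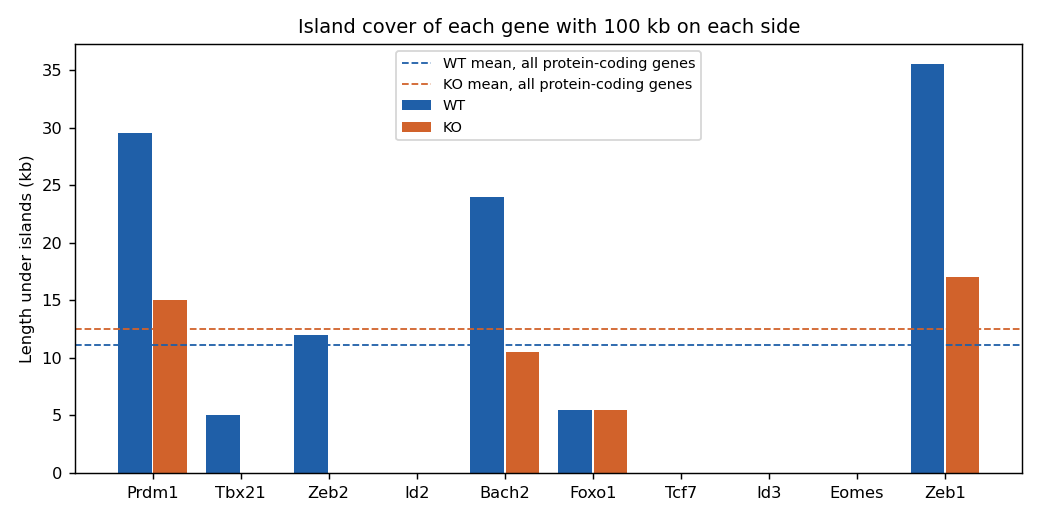
Length under islands, in kb, over the window of each gene (the gene with 100 kb on each side), with blue bars for WT and orange bars for KO. Dashed lines are the means over all 21774 protein-coding genes, 11.1 kb (WT) and 12.5 kb (KO). No gene has more KO than WT cover, and Foxo1 has 5.50 kb in both.

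Inside the genes themselves the numbers were small. WT islands lay in Prdm1, Bach2 and Zeb1, and KO islands in Bach2 and Zeb1, with the same genes counted when 2 kb was added on each side. Of all protein-coding genes 12.4% had a WT island in the gene, 12.3% a KO island, 5.64% WT alone and 5.54% KO alone, and with 2 kb added 14%, 13.7%, 6.39% and 6.16%. These 10 genes had a median length of 59.3 kb, against 17.2 kb over all genes, and a part of gene length in these counts was not tested. Members with an island in the gene were 3 of the 4 longest, and the other of those 4, Zeb2 at 134 kb, had none.

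Overlap between the lists was found for 4 of the 13 WT islands and 4 of the 6 KO islands. The 4 pairs were those upstream of Prdm1, in Bach2, upstream of Foxo1 and in Zeb1. As shares these are 30.8% (95% exact interval 9.09 to 61.4) of WT and 66.7% (22.3 to 95.7) of KO islands. Over the whole lists 48% of WT islands and 24.9% of KO islands overlapped. The interval for WT holds the share of its list and so does that for KO, and the intervals cover counting of islands alone. The 9 WT islands without a partner lay 5 to 724 kb from the nearest KO island, with a median of 86.5 kb.

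The islands near these genes were dense and short within their own lists. In WT, 11 of 13 were above the list median of 40.4 reads per kb, and 5 were in the densest 10%. In KO, 6 of 6 were above the median of 40.1, and 3 were in the densest 10%. Their median length was 7.5 kb in WT and 7.25 kb in KO, against 10 and 9 kb in the lists. Density ranged from 35.8 to 49.5 reads per kb in WT and from 41.7 to 52 in KO. Across all islands, density fell with length (Spearman rho -0.59 in WT and -0.55 in KO), so the ranks are not independent, and ranks in lists of different length show no change between genotypes.

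**Figure D3:**
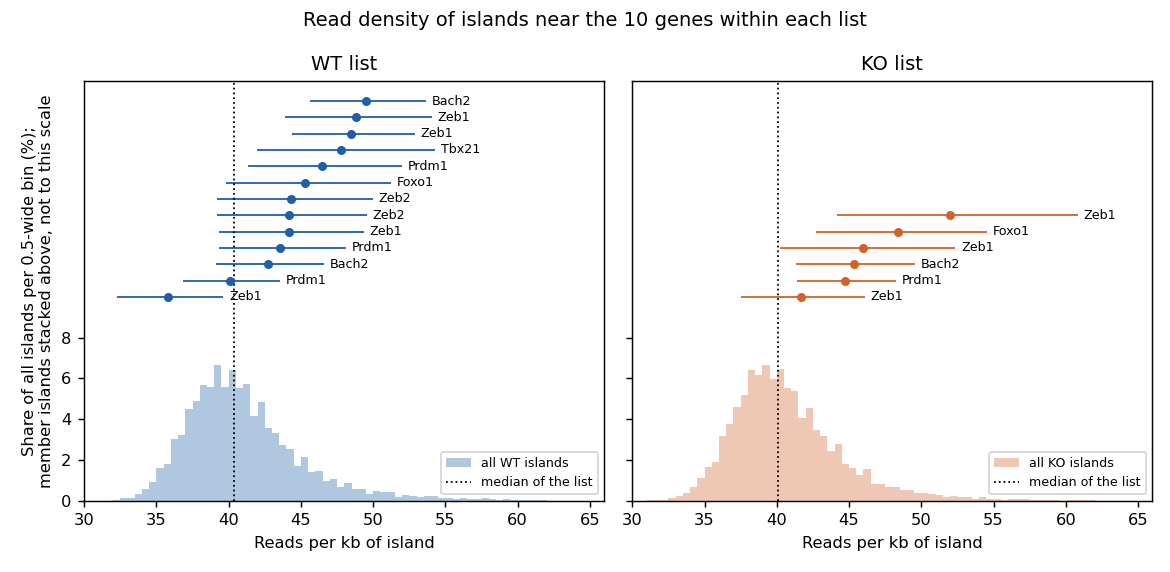
Reads per kb of island on the x axis for the WT list (left) and the KO list (right). Filled steps give the share of all islands in each list, the dotted line its median, and the points above are the islands near the 10 genes with 95% Poisson intervals. Of the WT points 11 of 13 lie right of the median, and of the KO points 6 of 6.

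Around these genes WT cover exceeded KO cover, while over the genome KO cover was the larger. Within 100 kb, 5 genes had more WT cover, 0 had more KO cover and 5 had equal cover or none. Over all genes 33.6% had more in WT and 22.8% more in KO. From the gene edge to 50 kb, WT islands covered 6.15% and KO islands 1.5% of the sequence around the 10 genes, against 4.43% and 4.50% around all genes. From 50 to 100 kb the shares were 1.60% and 0.850%, both below the 4.61% and 4.85% around all genes. In that band 1 gene had more WT cover (Zeb2, 10.5 kb against 0) and 1 more KO cover (Zeb1, 3 kb against 0), against 23.7% and 20.3% of all genes, so the WT excess there rests on Zeb2. From 100 to 200 kb they were 5.42% and 2.03%, against 4.70% and 5.35% around all genes, and from 200 to 500 kb 6.64% and 2.83%, against 4.84% and 6.27%. The WT total was the higher of the 2 in each of these bands, in that from 50 to 100 kb through Zeb2 alone.

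From 500 to 1000 kb the totals were closer, 4.87% in WT and 4.54% in KO, against 4.78% and 7.04% around all genes. Here 9 of the 10 genes had more WT than KO cover, and over all genes 42.2% did, while 46.5% had more in KO. Bach2 was the exception, where WT islands covered 56.9 kb and KO islands 199.5 kb of 1000 kb. At Tcf7 the values were 40.5 and 0 kb, at Id2 22.9 and 0 kb, and at Zeb1 95 and 28.5 kb. They were closer at Zeb2 (75.1 and 74.5 kb), Eomes (45.5 and 42.5 kb), Foxo1 (30.6 and 25.5 kb) and Prdm1 (86 and 75 kb). From 200 to 500 kb 7 genes had more WT cover, against 42.6% of all genes, and 1 more KO cover, against 38% of all genes. The exception there was Eomes, with 6.50 kb of WT and 16.5 kb of KO cover. The 10 genes were chosen with earlier results of these libraries known, and neighbouring bands share long stretches of chromatin, so these counts are a description.

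**Figure D4:**
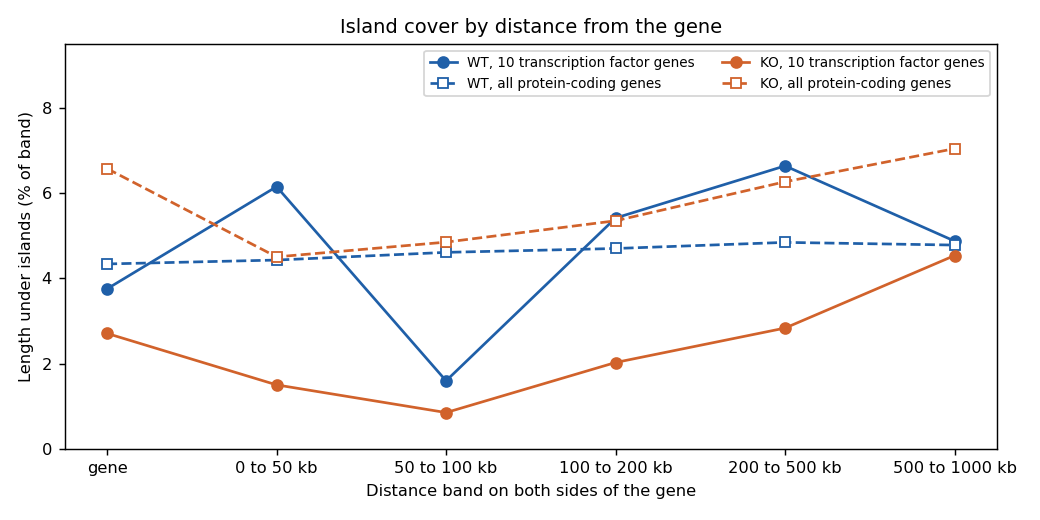
Share of sequence under islands, in percent, in bands of growing distance on both sides of the gene, from the gene itself to 500 to 1000 kb. Filled symbols are the 10 genes and open symbols all protein-coding genes, blue for WT and orange for KO. KO cover near the 10 genes lies below that near all genes in each band, and the WT total is above the KO total in each, from 50 to 100 kb through Zeb2 alone.

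Starts of transcription lay nearer to a WT island in 8 of the 9 genes with a listed start. Over all 17492 genes with a listed start the share was 57.9%, and 38.7% lay nearer to a KO island. The median distance was 94.1 kb to a WT island and 450 kb to a KO island, against 124 and 185 kb over all genes. Foxo1 was the exception, at 59.8 kb in WT and 59.3 kb in KO, a difference of 1 grid step at the same island. Bach2 differed as little, at 31.1 and 31.6 kb. The genes with the widest gaps between lists were Tbx21 (24.8 and 754 kb), Id3 (147 and 2196 kb) and Id2 (453 and 1527 kb).

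**Figure D5:**
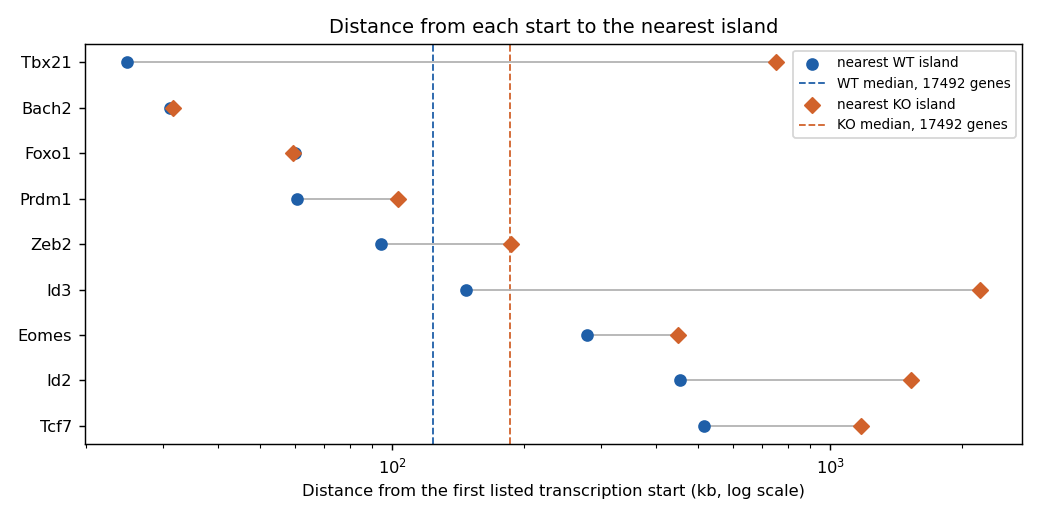
Distance in kb, on a log axis, from the first listed transcription start of 9 genes to the nearest WT island (blue circles) and KO island (orange diamonds), ordered by the WT distance. Dashed lines are the medians over 17492 genes. At Bach2 and Foxo1 the symbols coincide, and at Tbx21, Id3, Id2 and Tcf7 the KO island is 754 kb or more away.

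Other transcription factors of T cells had islands within 2 kb at shares close to those over all genes, and differences were not tested. Of 48 such genes, 5 (10.4%) had a WT island within 2 kb and 4 (8.33%) a KO island, 3 of them both, against 14% and 13.7% of all genes and 3 and 2 of the 10 genes above. Ikzf2, which encodes HELIOS, had overlapping islands of 5 kb in each list. Tox, a regulator of exhausted cells, carried 14.6 and 6 kb in WT and KO, and Tcf12, an E protein gene, 5 and 13.5 kb, none of which overlapped. Within 2 kb Rora (13.5 kb) and Maf (3.75 kb), which act in helper lineages, had WT islands alone, and Runx2 a KO island alone (4.50 kb). With 100 kb on each side, Runx2 had 15.8 kb of WT and 9.5 kb of KO cover. Rora then had 25.5 and 9 kb, and Maf 9 and 0 kb. Within 100 kb the count was 19 in WT and 9 in KO, or 39.6% and 18.8%. Both lie below the 48.9% and 40.4% of all genes. Of the 48, 8 had islands in both lists and 11 in WT alone within 100 kb, beside 32.3% and 16.6% of all genes. One of the 48, Foxp3, lies on chromosome X, where few islands were called.

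Within 2 kb, islands at genes that the 10 factors are known to regulate were in the WT list alone. Of all genes 14% had a WT island within 2 kb, 13.7% a KO island and 6.39% one in WT alone. Of 14 effector targets, which include granzyme and cytokine genes, 1 had a WT island within 2 kb, Il2rb (7 kb), and 0 a KO island. Of 14 naive and memory targets 2 had a WT island within 2 kb, Il7r (17.8 kb) and Il2 (3.79 kb), and 0 a KO island. Within 100 kb Il7r also had 2 KO islands with 11 kb of cover, while Il2rb and Il2 had no KO cover. Within 100 kb the effector targets numbered 5 in WT and 3 in KO, and the naive and memory targets 10 and 4, against 48.9% and 40.4% of all genes. The shares of 71.4% and 28.6% for the latter stand on either side of the shares over all genes. The T cell markers Cd3e, Cd3d, Cd3g, Cd8a, Cd8b1, Cd2, Lck, Zap70, Cd5 and Trac had 0 of 10 under an island within 2 kb in either list, which is close to the 14% and 13.7% of all genes. Within 100 kb 2 of the 10 had a WT and 0 a KO island, against 48.9% and 40.4% of all genes. The B cell, NK cell and myeloid markers had 5 of 13 in WT and 3 in KO within 2 kb. The 5 were Pax5 (8 kb in WT, 0 in KO), Ebf1 (10.5 and 6 kb), Ncr1 (10.2 and 0 kb), Klrb1c (9.02 and 3.50 kb) and Adgre1 (16.5 and 11.5 kb). Within 100 kb the 6 B cell markers had 5 in WT and 3 in KO, the 2 NK cell markers 2 and 2, and the 5 myeloid markers 3 and 2. Of the CD4 T cell markers Cd4 and Zbtb7b, 0 of 2 had an island within 2 kb, and within 100 kb Cd4 had one in WT alone. An island list does not measure expression.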

How the data were processed

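H3K9me3 ChIP-seq was analysed through 1 deposited island list for each of 2 libraries. Groups came from the titles. Bowtie2, SICER 1.1 and mm10 are named in the submitters' processing notes. Window, gap, threshold, duplicate handling and use of the input are not stated there. The deposited lists hold a start, an end and a whole-number count per island with no header. The authors' count was read as ChIP reads in the island, unscaled, and divided by island length.

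Genes came from RefSeq GRCm38.p6; 402 of 49997 entries, on unplaced scaffolds or the mitochondrial genome, were left out. An island within 100 kb had at least 1 bp in the gene with 100 kb on each side. Promoter CpGs were counted in the 250 bases before each listed start. Intervals are exact and cover counting error only. Reads carry no molecular identifiers and are not independent molecules. Python 3.11.15, pandas 2.3.3, scipy 1.17.1 and numpy 2.4.6 were used, with functions checked on simulated islands.

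The 10 genes and the lists were chosen with earlier results of these data known. Named are the 10 genes, members of the other lists with an island within 2 kb, and protein-coding genes that an island near the 10 touches. Others were chosen after their values were seen. Genes alike in pattern are not named, since 2 libraries give no pattern.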

Additional observations from a re-analysis of the deposited data

How the results depend on the processing

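No paired analysis was possible because there was 1 H3K9me3 library in each group. Lists without islands under 5 kb, lists with islands less than 5 kb apart joined, and overlap counted from 50% of an island's length kept each count, cover and share within 1.5 times or its interval. Above the median of reads per kb, WT minus KO cover was 38.9 kb in place of 63.4 kb, with 0.5 kb in place of 14.5 kb at Prdm1 and 8 kb in place of 18.5 kb at Zeb1. With the KO list reduced to the WT number of islands, 3 KO islands remained near the genes in place of 6, by dropping KO islands. The Foxo1 KO island was among those dropped, so that gene had 5.5 kb in WT alone, and 3 genes had islands in both lists and 3 in WT alone, in place of 4 and 2, with 2 overlapping WT islands in place of 4. With 50 kb on each side no count or total changed by over 1.5 times, while Zeb2 cover fell from 11.9 to 1.49 kb. With 200 kb on each side there were 23 WT and 11 KO islands, 220 kb and 88.5 kb of cover and a difference of 131 kb, from a wider window. In each of these settings 5 or 6 genes had more WT cover and 0 had more KO cover. For the reduced KO list that 0 was fixed in advance. Only KO islands were taken out there, and 0 genes had more KO cover before.

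With 100 kb in place of 2 kb, of 48 other T cell transcription factors 19 had islands in WT, 9 in KO, 8 in both and 11 in WT alone. Genes regulated by the 10 factors had them in 15, 7, 6 and 9, with 1 in KO alone. Among autosomal genes, a background chosen after the data were seen, 51.8% had a WT island within 100 kb and 42.7% a KO island. With 1 library per genotype and no known depth, a lost mark and a signal under the calling threshold cannot be told apart.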

Other observations

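The genes around the 10 transcription factors were few. Their windows of 100 kb on each side held a median of 1 other protein-coding gene, from 0 at Foxo1 and Zeb1 to 8 at Tbx21, against a median of 4 over all genes. Of these neighbours Gja10, next to Bach2, was the one with an island in the part inside the window. Of the 13 WT islands 6 touched no annotated gene, 2 touched the long noncoding RNA gene Gm10125 and 5 a protein-coding gene, which 36.5% of all WT islands do. Of the 6 KO islands 3 touched no annotated gene and 3 a protein-coding gene, which 29.7% of all KO islands do.

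At Prdm1 and Bach2 the first islands outside the window overlapped between the lists. A WT island at chr10:44651001-44666500 and a KO island at chr10:44653001-44662000, 122 and 124 kb from Prdm1, overlapped over 9 kb. A WT island at chr4:32063501-32073000 and a KO island at chr4:32064501-32072000, 165 and 166 kb from Bach2, overlapped over 7.5 kb.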
